A study of Mus musculus with 6 samples.

Results

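miR-21 was represented by 2 of 756 features in a small RNA sequencing table of 6 libraries: its 5p arm in 1 form and its 3p arm. A feature is all rows of the table that share a name and a sequence. The members were chosen by name, and miR-21 was singled out for its high level, so its level and rank are given here as a description. All 6 libraries are labelled as Mes23.5, a dopaminergic hybrid line of mouse neuroblastoma and rat midbrain cells, and as exposed for 24 h to LPS, a component of bacterial cell walls. In 3 libraries the cells had received extracellular vesicles of microglia overexpressing SIX2, a transcription factor (SIX2_EV), and in 3 the vesicles came from control microglia (control_EV). BV2, a line of mouse microglia, stands in the growth protocol, so the cell of origin is given as labelled. Whether the 3 libraries of a group are separate cultures is not stated, and p-values cover the spread between libraries alone, which may be technical.

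A microRNA is cut from a hairpin transcript, and 1 strand of the resulting duplex is loaded into an Argonaute protein, where its seed pairs with target messenger RNAs and lowers their output. miR-21 is among the most abundant miRNAs of many cultured, activated and tumour-derived cells. Its transcription is driven by AP-1, STAT3 and NF-kB, and LPS raises it in macrophages, where its target Pdcd4 is a regulator of inflammatory signalling. It is also commonly found in extracellular vesicles, and sequencing of recipient cells does not show which molecules came with vesicles.

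The sequences below show what was counted and how it differs from its mouse relatives, with the seed, bases 2 to 8 from the 5′ end, in capitals. Those with u are RefSeq mature sequences (GRCm38.p6), to which both arms were matched, and those with t are from the deposited table. In the deposited 5p sequence, the last base is also in capitals because it lies beyond the annotated end.
mmu-miR-21a-5p: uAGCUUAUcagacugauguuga
deposited miR-21-5p: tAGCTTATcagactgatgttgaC
mmu-miR-21c: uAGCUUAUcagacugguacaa
mmu-miR-21b: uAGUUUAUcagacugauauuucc
mmu-miR-21a-3p: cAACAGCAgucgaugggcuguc
deposited miR-21-3p: cAACAGCAgtcgatgggctgtc

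The deposited 5p sequence has 23 bases, 1 more at its 3′ end than the 22 of the annotated form, and the hairpin has the same base there. Its 5′ end, and so its seed, is the annotated one. The deposited 3p sequence is the annotated 22 bases. Both rows carry rat names (rno), although the deposited hairpin equals the 92 bases of mouse Mir21a in RefSeq and differs from the listed rat hairpin at 1 base. Forms with 1 extra base at the 3′ end and no other change were common in the table: 40 of 384 mature features with a mouse hairpin had one, and 173 had the annotated sequence. Of 378 mature names with a mouse hairpin, 372 stood with a single sequence. The makeup of miR-21 isoforms could therefore not be compared between groups, since only 1 form of the 5p arm is listed.

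Mir21a lies on the minus strand at chr11:86584067-86584158 (GRCm38.p6). In GENCODE M21 the whole hairpin falls inside exon 12 of Vmp1, in the part annotated as UTR, on the same strand. Vmp1 encodes a membrane protein needed for autophagy. Each deposited miR-21 sequence occurred in GENCODE M21 transcripts of 2 genes, Mir21a and Vmp1. The deposited hairpin position, chr11:86474893-86474984, belongs to a build that is not named and was not mixed with GRCm38.

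Mouse has 2 further miRNAs named after miR-21. miR-21b differs from miR-21a-5p at 4 of 22 positions counted from the 5′ end, 1 of them in the seed (C4U). miR-21c differs at 5 of 21 positions, all outside the seed, from A16G onward. miR-21a-5p and miR-21c were the 2 of 1738 RefSeq mouse mature sequences with the seed AGCUUAU. No deposited row carried either name, and miR-21-5p was the 1 deposited feature with that seed. The 3p arm likewise was the 1 feature with the seed AACAGCA.

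The deposited reads ranged from 179620 to 421280 per library. Mature miRNA names with a mouse position took 25.3% to 37.6% of reads in SIX2_EV and 36.9% to 72.6% in control_EV. In each group the third library stood apart: sequences named mir-1285 took 7.94% and 7.48% of reads there and at most 0.447% in any other library. The labels name a neuronal line, and its 6 neuronal markers were mixed. miR-7a-5p, at 1570 to 2888 CPM, and miR-128-3p, at 76.1 to 278 CPM, were listed in 6 of 6 libraries and miR-129-5p in 5. miR-9-5p (under its rat name miR-9a-5p) and miR-218-5p (as miR-218a-5p) were each listed in 1 control_EV library, and the neuron-defining miR-124-3p was not matched to a row. Of 6 myeloid markers all 6 were matched, with a summed level of 30657 to 32467 CPM in SIX2_EV and 24617 to 47288 CPM in control_EV, mostly miR-146a-5p. miR-142-3p, miR-142-5p and miR-146a-5p were listed in 6 of 6 libraries, and miR-150-5p in all but the second SIX2_EV library. miR-223-3p was listed at 0 in the first and second SIX2_EV libraries, and miR-342-3p was listed in the third control_EV library alone. The cattle-named bta-miR-342, not in the sum, stood at 84.0 to 577 CPM. CPM stands for reads set to a common library size with TMM scaling, which takes most features as not differing. The TMM factors ran from 0.308 in the second SIX2_EV library to 2.73 in the third control_EV library, so CPM values are not shares of deposited reads. The 4 red blood cell or serum markers summed to 13921 to 21295 CPM in SIX2_EV and 8722 to 30695 CPM in control_EV, and the 4 matched of 6 mesenchymal, endothelial or muscle markers to 1391 to 1526 and 1358 to 1812 CPM. The mesenchymal, endothelial or muscle sum leaves out miR-126a-3p, a rat name that was not matched to the marker miR-126-3p. miR-126a-3p was listed in 6 of 6 libraries, with a lowest value of 406 and a highest of 1399 CPM, so that sum is too low. The 5 matched of 6 neuronal markers summed to 2054 to 3037 and 2303 to 3314 CPM. The part of other cell types in the miR-21 values was not tested.

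The level of the 5p arm was high in every library. SIX2_EV libraries had 4409, 2805 and 14516 reads of miR-21-5p, and control_EV libraries had 14679, 26509 and 61286. Scaled, the SIX2_EV libraries stood at 41934, 39271 and 65997 CPM and the control_EV libraries at 53669, 66343 and 54807 CPM. The first and second SIX2_EV libraries were the lowest of the 6, but the third lay above 2 of the 3 controls, so the groups overlapped. The groups also overlapped in the authors' normalized signal, with 10160, 9533 and 15510 in SIX2_EV and 12437, 15009 and 13893 in control_EV. There the third SIX2_EV library was the highest of the 6.

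Among mature miRNAs with a mouse hairpin miR-21 ranked first in 6 of 6 libraries, but it was not in each library the most abundant mature name under a wider definition. Among mature names with any mouse position it ranked 2 and 3 in the first and second SIX2_EV libraries and 1 in the other 4. Ahead of it stood bta-miR-11987 in both and bta-miR-11980 in the second, cattle-named sequences that carry a base change from the cattle entry, were placed at mouse positions and have no mouse hairpin in the deposited list. Reads of bta-miR-11987 numbered 19180, 40764 and 6847 in SIX2_EV against 11549, 5607 and 3410 in control_EV. By mean over the 6 libraries it stood at 140595 CPM and miR-21-5p at 53670 ± 11479 CPM (SD, n = 6), an order set by those SIX2_EV libraries. Among all 756 features, miR-21-5p ranked 8, 12 and 4 in SIX2_EV and 4, 2 and 1 in control_EV. The 7 names above it that are not mature miRNAs together took 70.1%, 68.9% and 47.3% of all reads in SIX2_EV and 55.5%, 34.4% and 12.5% in control_EV. They were picked for standing above miR-21-5p in at least 1 library. bta-mir-2887-2-p5 took 35.7%, 35.5% and 10.8% in SIX2_EV and 14.6%, 6.17% and 0.649% in control_EV, and mmu-mir-6240-p3 took 6.90%, 4.93% and 6.22% against 2.85%, 1.56% and 2.19%. bta-mir-2904-3-p3, above miR-21-5p in the most libraries, was lower in SIX2_EV by mean, at 8.63% against 10.7% in control_EV. Its libraries held 7.73%, 7.29% and 10.9% in SIX2_EV and 16.1%, 14.9% and 1.01% in control_EV. For mmu-mir-6240-p5 the groups overlapped, with 10.7%, 12.2% and 11.4% against 14.2%, 6.81% and 4.94%. The part of the 7 names in the rank of miR-21 and in its share of all reads was not tested.

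**Figure D1:**
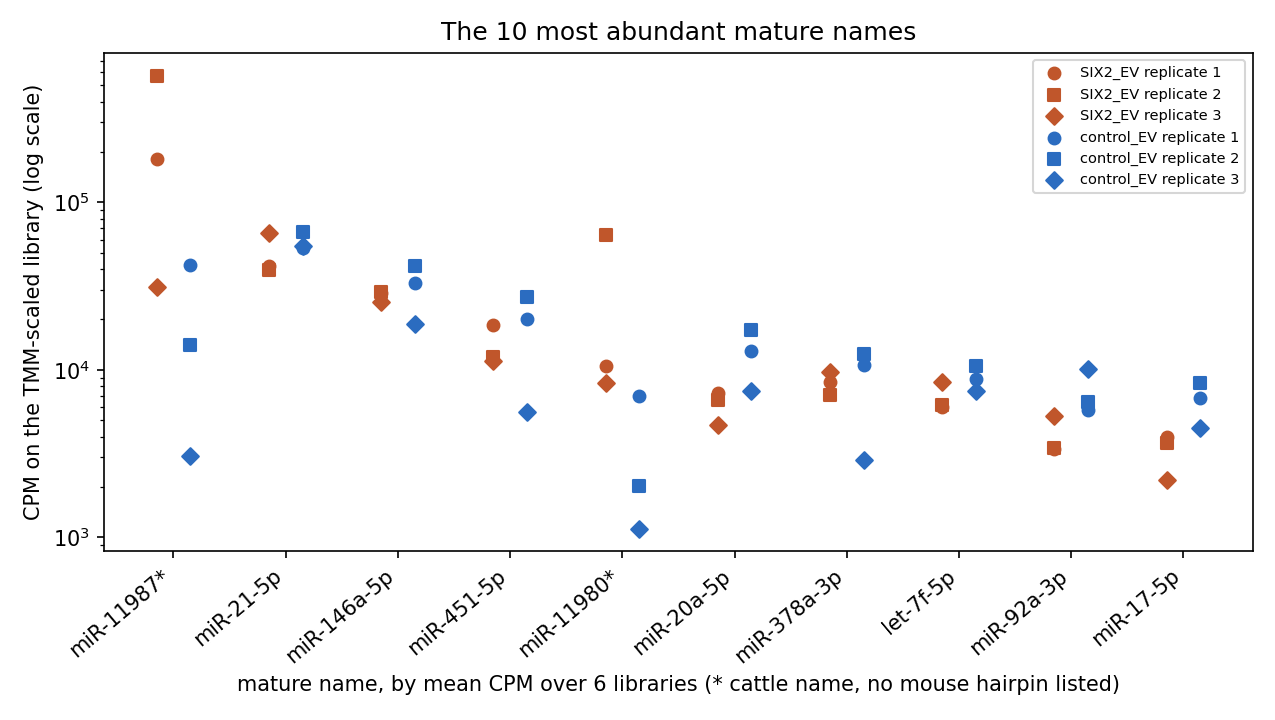
CPM (log axis) of the 10 mature names with the highest mean over 6 libraries, 1 point per library, with SIX2_EV in orange and control_EV in blue. miR-21-5p lies between 39271 and 66343 CPM, while the cattle-named miR-11987 runs from 3050 to 570714 CPM.

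The next mature miRNA with a mouse hairpin was miR-146a-5p, a brake on NF-kB signalling, in 6 of 6 libraries. miR-21-5p had 1.46, 1.34 and 2.59 times its reads in the SIX2_EV libraries and 1.63, 1.59 and 2.91 times in the control_EV libraries. The ratio was highest in the third library of each group, the libraries with the high mir-1285 share, and the part of that difference between libraries was not tested. The mean of miR-146a-5p was 29485 ± 7640 CPM (SD, n = 6), so the gap to miR-21-5p was 2.11 times the larger SD. Below it, miR-451-5p, known from red blood cells, stood at 15830 ± 7739 CPM and was lower than miR-146a-5p in 6 of 6 libraries. The names that followed, among them miR-20a-5p at 9383 ± 4761 and miR-378a-3p at 8565 ± 3340 CPM (SD, n = 6), did not differ from their neighbours beyond their spread.

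The share of reads taken by miR-21, both arms together, depended on which reads it was set against. Of all deposited reads, the SIX2_EV libraries held 2.45% (2.38 to 2.53, Wilson 95% interval), 1.21% (1.16 to 1.25) and 7.89% (7.77 to 8.01) as miR-21. It took 5.71% (5.62 to 5.80), 10.5% (10.4 to 10.6) and 14.6% (14.5 to 14.7) in control_EV. The intervals hold for counting error alone, because without molecular identifiers copies of 1 molecule may be counted more than once. The first and second SIX2_EV libraries lay below all controls and the third did not. The means were 3.85% ± 3.55 and 10.3% ± 4.44 (SD, n = 3), and the exact permutation test (two-sided) gave p = 0.2. The smallest p that 3 against 3 libraries allow is 0.1.

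Of reads with mature names and a mouse position, miR-21 took 9.69%, 4.57% and 20.98% in SIX2_EV and 15.5%, 17.6% and 20.1% in control_EV. The means were 11.7% ± 8.40 and 17.7% ± 2.31 (SD, n = 3; exact two-sided permutation p = 0.4). Beside this share moved the cattle-named bta-miR-11987, which took 42.1%, 66.4% and 9.89% of the same reads in SIX2_EV and 12.1%, 3.72% and 1.12% in control_EV. Without SIX2_EV replicate 3 the difference in means went from -5.97 to -10.6 percentage points, and without SIX2_EV replicate 2 to -2.39.

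Against mature names with a mouse hairpin, a comparison added after seeing the data, the shares lay closer together. miR-21 took 17.7%, 17.8% and 24.2% of these reads in SIX2_EV and 18.1%, 18.5% and 20.6% in control_EV. The third library of each group was the highest, and the other 4 lay within 17.7% to 18.5%. The means were 19.9% ± 3.72 and 19.1% ± 1.32 (SD, n = 3), so the direction turned, with a difference of 0.81 percentage points and an exact two-sided permutation p of 1. The highest share was 1.37 times the lowest, against 4.59 times for mature names with a mouse position and 12.1 times for all reads. After Benjamini-Hochberg adjustment over 4 shares, the fourth being mature names of any species, the p-values were 0.533, 0.533 and 1 in the order given here.

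**Figure D2:**
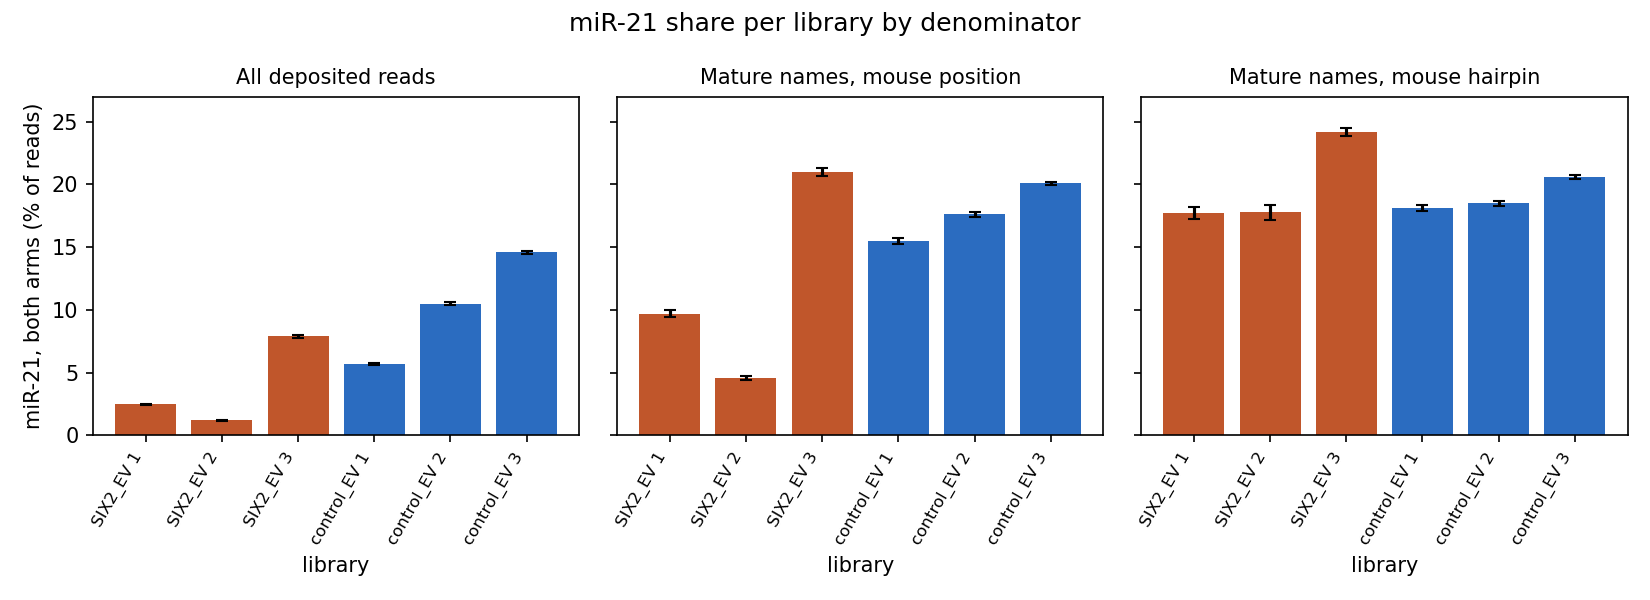
Share of reads taken by both arms of miR-21 in each library, in percent, with Wilson 95% intervals as error bars, for all deposited reads, mature names with a mouse position and mature names with a mouse hairpin. The bars run from 1.21% to 14.6% on the left and from 17.7% to 24.2% on the right.

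The share of miR-21-5p varied less between libraries than that of most names compared. The SD of the log2 share of mouse-hairpin reads over the 6 libraries was 0.18 for miR-21-5p against a median of 0.45 over 126 names that were above 0 in every library with a mean of at least 100 CPM, and 7 of them had a smaller SD. On the TMM-scaled CPM the SD of log2 values was 0.32 against a median of 0.52 over 134 names, and 33 had a smaller one. A miRNA that takes a large share of the denominator also moves it, so these are descriptions of the 6 libraries. In the first and second SIX2_EV libraries 1 read equals 9.51 and 14.0 CPM, so names near 100 CPM rest on few reads there. Counting error is larger at few reads than at the depth of miR-21-5p, and its part in these SDs was not tested.

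Between the groups, miR-21-5p did not pass the test. SIX2_EV had a mean of 49067 ± 14721 CPM and control_EV one of 58273 ± 7012 CPM (SD, n = 3). The log2 fold change was -0.25 (SE 0.56), and edgeR's quasi-likelihood test gave an adjusted p of 0.882. The 95% interval ran from -1.60 to 1.10 on the log2 scale, so neither a fall nor a rise of 2-fold lies outside it. With the whole table summed by mature name, the value was -0.22 (SE 0.49, adjusted p 0.894 by edgeR). By edgeR 0 of 319 tested features passed an adjusted p of 0.05 (0%). Before adjustment 39 features (12.2%) had p under 0.05, and miR-21-5p, with an unadjusted p of 0.672 by edgeR, was not among them. DESeq2 called 20 features (6.41% of the 312 with an adjusted p), again without miR-21-5p, whose value there was -0.10 (SE 0.27, adjusted p 0.932). limma-voom called 0 features, and 62 had an unadjusted p under 0.05.

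The size of the difference moved with the scaling, and so did that of the other features. With total counts the log2 fold change of miR-21-5p was -1.41 (SE 0.84, adjusted p 0.360 by edgeR), where the median of all tested features was -1.52. With TMM that median was -0.30, and with DESeq2's size factors in edgeR it was -0.16. Relative to it, miR-21-5p stood at 0.05 with TMM, 0.05 with those size factors, 0.11 with total counts, 0.06 with the total of mature reads and 0.04 with upper quartile scaling. With only mature names with a mouse hairpin in the fit, the log2 fold change was -0.04 (SE 0.33, adjusted p 0.945 by edgeR).

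**Figure D3:**
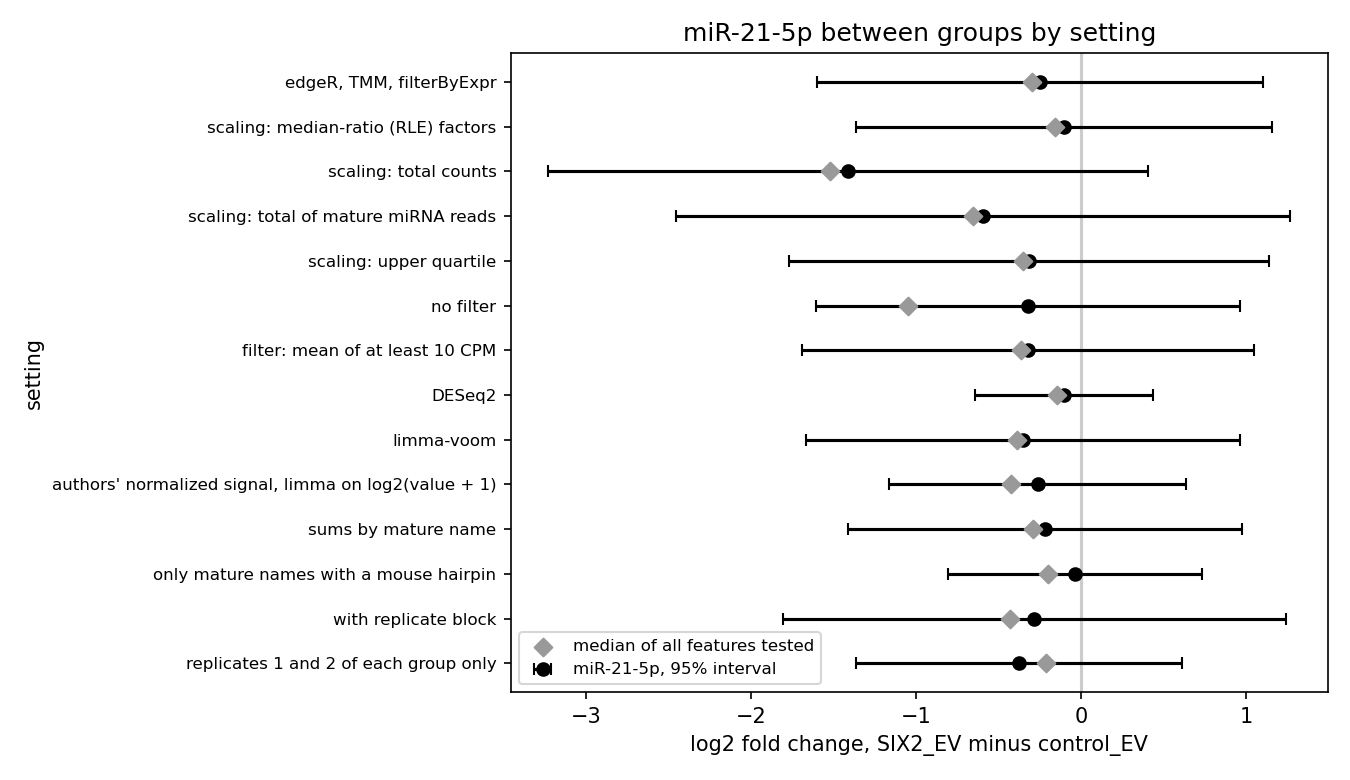
Log2 fold change of miR-21-5p (SIX2_EV minus control_EV, black points with 95% intervals) and the median over all features tested (grey diamonds) in the main fit and its alternatives. The fits with 1 library left out are not drawn. The points lie between -1.41 and -0.04, each interval includes 0, and in the 5 scalings the grey diamond stays within 0.11 of the black point.

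The 3p arm, the strand that is mostly discarded, was near the limit of what the table lists. It had 0, 0 and 18 reads in SIX2_EV and 20, 42 and 99 reads in control_EV, or 0, 0 and 81.8 CPM against 73.1, 105 and 88.5 CPM. The first and second SIX2_EV libraries were listed at 0, and the third lay within the range of the controls, so the groups overlapped. The log2 fold change was -1.54 (SE 1.49) with an adjusted p of 0.747 by edgeR.

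The ratio of arms does not depend on how libraries are scaled. Where the 3p arm was listed, it made up 0.124% (Wilson 95% interval 0.0784 to 0.196) of miR-21 reads in the third SIX2_EV library. In control_EV it made up 0.136% (0.0881 to 0.210), 0.158% (0.117 to 0.214) and 0.161% (0.133 to 0.196). The intervals of these 4 libraries overlap, and there were 619 to 806 reads of the 5p arm for each read of the 3p arm. At the pooled share of the 4 libraries, 0.153%, the first SIX2_EV library would hold 6.74 reads of the 3p arm and the second 4.29. The table lists few values under 5 reads, so a fall of the 3p share in these libraries was not detectable at this depth. 3p reads well above 5 would have been listed, and neither library had any.

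The hairpin of miR-21 was among the more one-sided of those with both arms listed. Over all 6 libraries its minor arm took 0.144% of the reads of both arms. Among 55 mouse hairpins with both arms listed and at least 1000 reads, the median was 2.43% (range 0.0122% to 47.3%), and 4 had a smaller minor arm share. Hairpins with a single listed arm are not in this count. Values under 5 reads are seldom listed, so a hairpin with little over 1000 reads could hardly show so small a minor arm. The place of miR-21 in this range therefore also depends on read depth, and the part of depth was not tested.

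The mature names most like miR-21-5p across libraries were miR-30e-5p, miR-155-5p, miR-182, miR-30a-5p and miR-30a-3p. Likeness was the root mean square difference of log2 CPM after each name's mean over the 6 libraries was removed. It was 0.10 for miR-30e-5p, 0.11 for miR-155-5p and miR-182, 0.12 for miR-30a-5p and 0.13 for miR-30a-3p, against a median of 0.46 over 133 candidates. All share the 6 libraries and their scaling. For miR-30e-5p the SIX2_EV libraries stood at 2986, 2800 and 4196 CPM, and control_EV at 3693, 4422 and 3205 CPM. miR-155-5p, which activated myeloid cells make after LPS, stood at 162, 140.0 and 218 CPM against 179, 230.2 and 223 CPM in control_EV, from 17, 10 and 48 reads against 49, 92 and 249. Like miR-21-5p, both were lowest in the first and second SIX2_EV libraries, a pattern that follows from choosing names by likeness over these libraries. Their deposited sequences, with seeds in capitals, show that none has the seed of miR-21, and that both 5p arms of the miR-30 family have the same one.
rno-miR-30e-5p: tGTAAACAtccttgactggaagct
rno-miR-30a-5p: tGTAAACAtcctcgactggaagct
rno-miR-155-5p: tTAATGCTaattgtgataggggtt
rno-miR-182: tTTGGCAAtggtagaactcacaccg

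**Figure D4:**
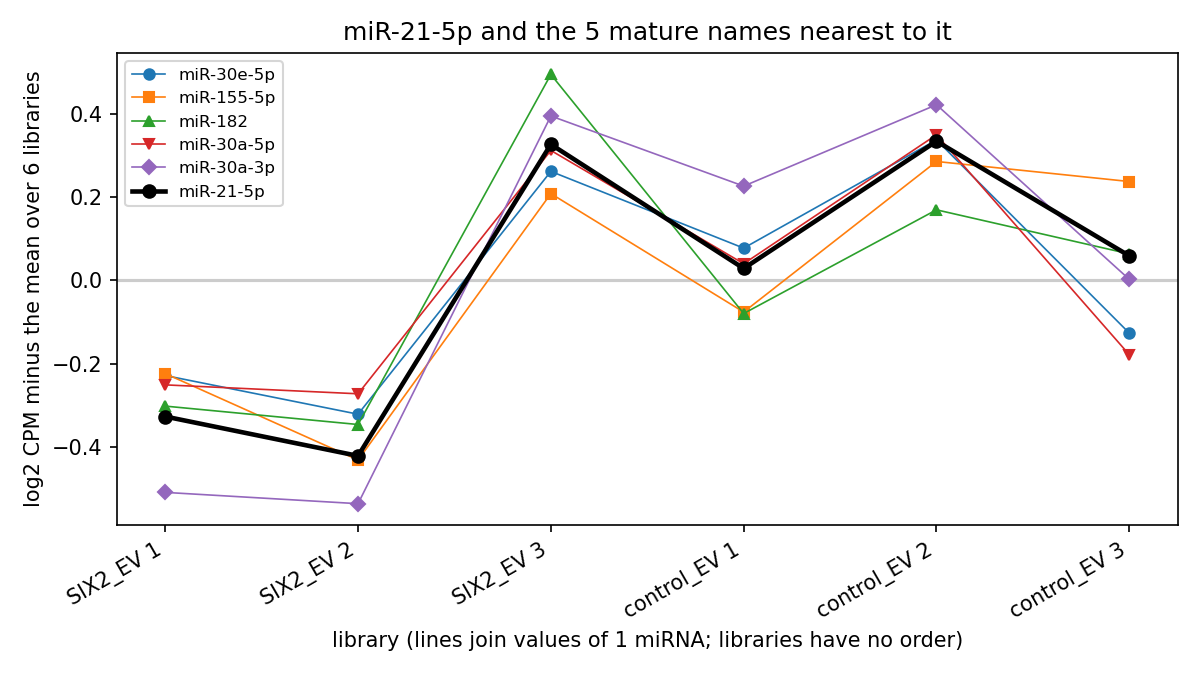
Log2 CPM minus each name's mean over the 6 libraries for miR-21-5p (thick black line) and the 5 nearest mature names. All 6 lines are below 0 in the first and second SIX2_EV libraries and above 0 in the third SIX2_EV and second control_EV libraries. The 5 names were chosen for their likeness to miR-21-5p in these libraries.

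Other miRNAs that inflammatory signals induce did not pass the test either. Of 15 listed, 13 were matched and 11 tested in the fit of mature names, and 0 passed an adjusted p of 0.05 by edgeR, as did 0 of all 308 names (0%). At an unadjusted p under 0.05 there was 1 of the 11, miR-132-3p, against 33 of all names (10.7%). The median log2 fold change was -0.25 against -0.29 over all names, with 7 of 11 below 0 against 64.6%. The groups did not overlap for 2, both lower in SIX2_EV, against 17.5% of all names. miR-146a-5p had 27811 ± 2051 CPM in SIX2_EV and 31159 ± 11546 in control_EV, let-7i-5p 3239 ± 268 and 2947 ± 753, and miR-221-3p, which blocks a cell cycle inhibitor, 2520 ± 552 and 2395 ± 194 (SD, n = 3 for each). miR-21-5p, at -0.22 in this fit, lay close to the median of this list.

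miRNAs of proliferating cells stood lower than miR-21-5p in SIX2_EV by their median, again with no call. Of 14 listed, 13 were tested and 0 passed an adjusted p of 0.05 by edgeR, while 6 had an unadjusted p under 0.05, against 10.7% of all names. Their median log2 fold change was -0.69 against -0.29 over all names, with 11 of 13 below 0 against 64.6%. The exceptions were miR-221-3p and miR-222-3p, which stand in both lists. With the median over all names taken off, the list stood between -0.39 and -0.56 in the 5 scalings and miR-21-5p between 0.06 and 0.13. The groups did not overlap for 7 of 13 members, all lower in SIX2_EV, against 17.5% of all names. The most abundant were miR-20a-5p with 6189 ± 1341 CPM in SIX2_EV and 12577 ± 4925 in control_EV, miR-92a-3p with 4036 ± 1104 and 7458 ± 2377, and miR-17-5p with 3281 ± 940.0 and 6537 ± 1949, all from the miR-17-92 cluster (SD, n = 3 for each). miR-20a-5p, miR-92a-3p and miR-17-5p are in both counts, that by unadjusted p and that by lack of overlap. As members of the same cluster they are not independent, while the counts treat them as separate. The difference between the list and miR-21-5p was not tested.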

How the data were processed

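Small RNA of 6 libraries was sequenced after Trizol extraction and TruSeq small RNA preparation, and ACGT101-miR then took out adapter dimers, repeats and reads of common RNA families, per the labels' protocols. Neither build nor miRBase release is given in the sources used here. Values in the deposited table are the authors' estimated counts (raw, per the file headers), split over loci and so not always whole, and the authors' normalized signal, which is the counts times 1 factor per library. The origin of the factors is not stated.

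Rows of 1 name and sequence were summed and rounded to whole reads. Only 31 of 2410 values above 0 were under 5 reads, so a 0 is given as listed at 0. Mature names are miR or let names without a p5 or p3 hairpin ending. The planned test took those with a mouse position as denominator. The test against those with a mouse hairpin (a mouse entry in the deposited hairpin list), a set the list of alternatives also named, was added after seeing the data. Groups were compared with edgeR 4.0.16 (quasi-likelihood test, TMM, filterByExpr, no block, Benjamini-Hochberg adjustment at 0.05) in R 4.3.3, tested on simulated counts, and shares with exact permutation tests. SEs are on the log2 scale.

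Alternatives were other scalings and filters, DESeq2 1.42.0, limma 3.58.1 (voom, or log2 of the authors' normalized signal with a pseudocount of 1), sums by mature name, mouse-hairpin names alone, a replicate block and each library left out. Named besides miR-21 were the 10 most abundant mature names, the 5 most alike with at least 100 CPM, features with its seed and the 3 most abundant members of each list. miR-9, miR-218 and miR-451 were matched to lists by hand under rat names, and miR-126a-3p was not. The members, lists and rules were chosen with earlier results of these data known. Replicate pairs differed by more than counting error (chi-square per degree of freedom from 56.9 up), so no library was taken as deposited more than once, which does not show separate cultures.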

Additional observations from a re-analysis of the deposited data

How the results depend on the processing

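Over 19 alternatives the log2 fold change of miR-21-5p stayed below 0 and did not pass, ranging from -1.41 to -0.04 (adjusted p 0.360 to 1.00), and from -0.37 to -0.05 with each library left out in turn. That of miR-21-3p also stayed below 0 without passing. Without SIX2_EV replicate 3 all SIX2_EV values of miR-21-3p are 0, so the fitted value is no measure of size. Set to 5 reads each, the 2 libraries listed at 0 would average 58.8 CPM, against 88.9 CPM in control_EV. At the pooled arm share of 0.153% they would hold only 6.74 and 4.29 reads of the 3p arm. Values under 5 reads are seldom listed, so these zeros do not set a least size for a fall. With the replicate block, miR-21-5p was at -0.28 (adjusted p 0.842) and miR-21-3p at -3.19 (adjusted p 0.544), and 0 features passed. Whether the numbers pair the libraries could not be decided. Deviations of same-numbered libraries from their group means correlated at 0.21, 0.07 and 0.69, and the first and second SIX2_EV libraries correlated best with another number. With 3 libraries per group the deviations sum to 0 within a group, so these correlations are not independent. The third libraries of both groups shared the high mir-1285 share, at 7.94% and 7.48%.

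Features past an adjusted p of 0.05 were 20 with DESeq2 and 5 with the authors' normalized signal, against 0 in the other 17 alternatives, where 9 to 96 had an unadjusted p under 0.05. The share of mature reads turned direction, to 0.81 percentage points, with mouse-hairpin names as denominator, also chosen after seeing the data, where the cattle-named sequences are left out by construction. With each library left out, its difference ranged from -10.6 to -2.39 points and that of the share of all reads from -8.68 to -4.25. In replicates 1 and 2 alone, an alternative chosen after seeing the data, these were -9.41 and -6.27 points and miR-21-5p was at -0.37. The mean log2 ratio of 5p to 3p reads over 4 libraries was 9.44 ± 0.18 (SD) and ranged from 9.37 to 9.49 with a library left out. Isoform shares had no alternatives to run, since 1 form of the 5p arm is listed. Depth limits the 3p arm, at 0 to 99 reads.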
